A study of Bos taurus with 16 samples.

Results

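The genes described here are 41 cell cycle and proliferation genes chosen by their roles in cell division. A probe was counted for a gene when the scanner files gave it that gene symbol and did not mark it as a control, and 38 of the 41 genes were found in this way, with 88 of the 46615 probes, out of 26554 genes and transcripts on the array. MKI67 was not analysed here, while probes for TOP2A and MCM2 were recognised from the array's text descriptions only and are given separately. The samples were circulating white blood cells (WBC, preserved in PAXgene tubes) and endometrial biopsies of the same 8 multiparous Holstein cows, collected 45 to 55 days after calving. Of these cows, 4 had subclinical endometritis (SCE), an inflammation of the uterine lining without outward signs that was diagnosed by histology, and 4 were healthy. The 4 groups were thus WBC of healthy cows, WBC of SCE cows, endometrium of healthy cows and endometrium of SCE cows, each with 4 arrays from 4 cows. The labels name no treatment. Cows in the luteal and in the follicular phase of the estrous cycle were present in both health groups, but in different proportions. By the paper, most SCE cows on the arrays were luteal, whereas the healthy cows were evenly split. Since the labels do not tie the phase to the cow, its part in any value below was not tested. A whole biopsy and whole blood leukocytes are mixtures of cells, so that fewer dividing cells and less RNA per dividing cell cannot be told apart. Nor can either be told apart from a difference in RNA of cells that do not divide.

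A cell enters division in G1, when D-type cyclins with CDK4 and then E-type cyclins with CDK2 release E2F transcription factors, and inhibitors such as CDKN1A and CDKN1B hold these kinases back. Replication origins are licensed by CDC6, CDT1 and the MCM helicase, DNA is copied in S phase with PCNA and with nucleotides supplied by ribonucleotide reductase and thymidylate synthase, and entry into mitosis is driven by CDK1 with cyclins A and B, CDC25B, PLK1 and the aurora kinases. The endometrial epithelium and stroma grow and regress with ovarian steroids, whereas most circulating leukocytes, neutrophils above all, have left the cell cycle.

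Each value rests on oligonucleotide probes of 60 bases. A probe whose match to the genome is longer than the probe crosses a gap in that match, as a probe on spliced mRNA does where 2 exons meet, and 19 of the 88 probes were of this kind. The 5 sequences below are probes of this kind for genes on which the comparisons turn, written 5′ to 3′ as deposited, with coordinates on the Btau_3.1 build as in the scanner files.
CDC25B, chr13:51960102-51960568, minus strand: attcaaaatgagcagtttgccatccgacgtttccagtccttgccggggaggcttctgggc
CCNB2, chr10:51754017-51754627, minus strand: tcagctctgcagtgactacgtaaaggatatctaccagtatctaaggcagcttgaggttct
MCM5, chr5:79116351-79117364, plus strand: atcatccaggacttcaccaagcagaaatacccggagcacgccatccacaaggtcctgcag
UBE2C, chr13:75364411-75364967, plus strand: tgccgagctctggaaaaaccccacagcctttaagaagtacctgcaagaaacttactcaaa
BLM, chr21:21596176-21596698, minus strand: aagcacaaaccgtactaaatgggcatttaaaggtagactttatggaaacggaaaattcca
The gene that varied most between cows, CCNB1, was read by a pair of overlapping probes. They overlap at chr20:11106729-11106768 on the minus strand, and the longest stretch of bases common to both is the following.
CCNB1, shared stretch: ggaatactacctgcaaataaaa

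Array quality set how finely these genes could be compared. The median signal above background ran from 83 to 202.5 units on the WBC arrays and from 79 to 316 units on the endometrium arrays, and 64.7 to 79.8% of spots were well above background. All WBC arrays shared one slide and all endometrium arrays another, so that tissue and slide cannot be told apart, whereas SCE and healthy cows were on the same slide within each tissue. The endometrium of SCE cow 833 was the dimmest array (79 units) and stood apart from the other endometria. It was the highest of 8 for 28.1% and the lowest for 26.5% of all genes. The mean level of 5 endothelial marker genes was 11.62 there, against 8.91 to 9.69 in the other 7. That of 3 B cell genes was 9.75 against 8.86 to 9.09, and that of 6 stromal marker genes 11.90 against 12.87 to 14.05. The mean level of the stromal genes was 6.53 to 6.73 in WBC. Of the 38 genes, 34 were well above background on all 8 WBC arrays and 24 on all 8 endometrium arrays. Another 12 were above background on 1 to 7 endometrium arrays. CDC6 and CCNE2 were above background in no endometrium, and CCNE2 in no WBC array either. All these counts are for the probes in the mean, and a gene was counted on an array where any of these probes was above background. CCNE2 and CCNE1 each had another probe, left out of the mean because it was not measured on all arrays. That of CCNE2 was above background in 4 healthy and 3 SCE endometria, and that of CCNE1 in 3 and 3.

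Most of the cell cycle genes were lower in the endometrium than in WBC. A gene's level is given as log2 normalized intensity, the mean of its probes, and differences were tested with limma's TREAT against a change of 1.2-fold with Benjamini-Hochberg adjustment over all genes. At an adjusted p of 0.05, 29 of the 38 genes differed between tissues, as did 52.7% of all genes. Of the 29, 25 fell from WBC to endometrium (30.4% of all genes did) and 4 rose (22.3% of all genes). The median difference, endometrium minus WBC, was -0.79 over the 38 genes and -0.15 over all genes, and 30 of the 38 lay below the median of all genes. The tissues did not overlap, with every endometrium below every WBC sample, for 14 of the 38 genes (21.9% of all genes), and with every endometrium above every WBC sample for 1 (15.6%). The number of calls and their direction depended on the scaling. When arrays were quantile-normalized within each tissue, the median difference of all genes moved to 0.33, 40.9% of all genes were called higher and 10.13% lower, and 15 of the 38 genes were called, 7 higher and 8 lower. Relative to the median of all genes, the median of the 38 genes was -0.64 with all arrays normalized together and -0.48 within tissues, and between -1.07 and -0.48 over 5 scalings, under which 26 to 30 of the 38 genes lay below the median of all genes. CCND1, CCNB1, TYMS and RRM1 were called higher, and CDC25B, RRM2, CCND3, PLK1, CCNB2, CCND2, E2F1 and CDC20 lower, under all 5. The mean level of 5 leukocyte genes ran from 13.44 to 13.73 in WBC and from 8.29 to 9.47 in endometrium. That of 7 epithelial genes ran from 7.68 to 7.96 and from 8.83 to 10.95. Of these 7, CLDN4 was lower in endometrium (-0.76, TREAT adjusted p = 0.0156). The rest were higher there, by 0.76 for ELF3 to 6.05 for EPCAM. The mean level of 5 erythroid genes ran from 10.19 to 11.79 in WBC and from 7.82 to 8.49 in endometrium. The part of these cell types in the tissue differences was not tested.

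**Figure D1:**
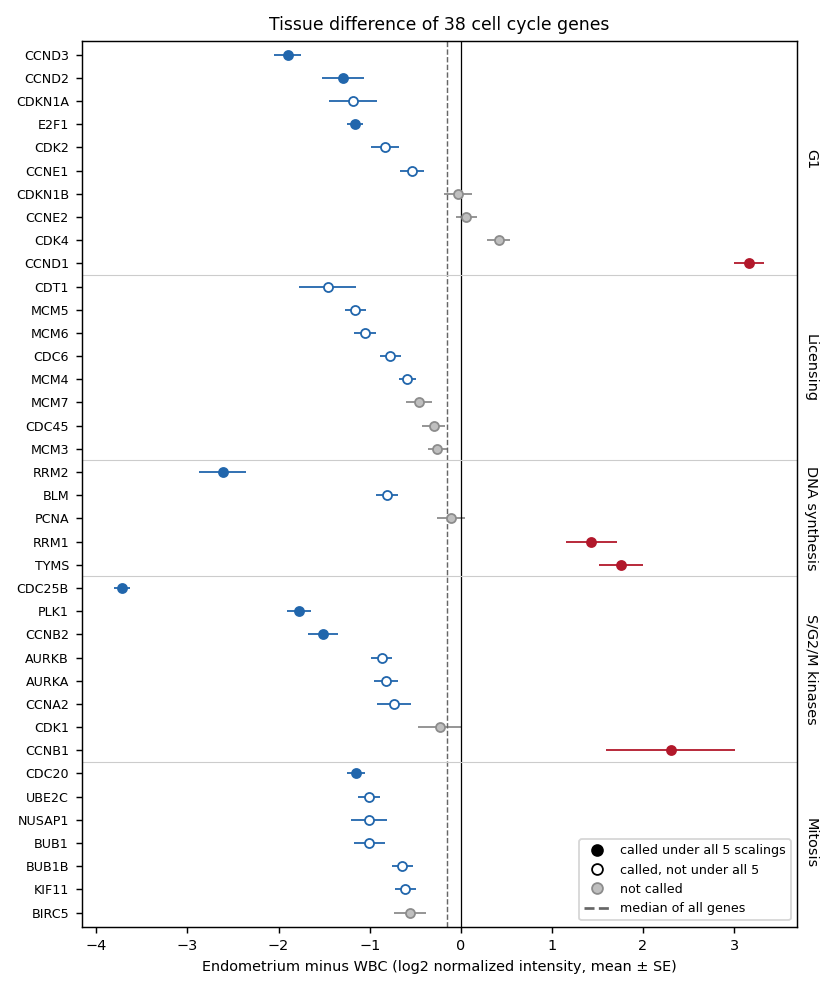
Difference in level between endometrium and WBC (log2 normalized intensity, mean ± SE over 16 arrays) for the 38 genes, grouped by role. Filled points were called in the same direction under all 5 scalings (4 higher, 8 lower), open points were called with all arrays normalized together but not under all 5, and the dashed line is the median of all genes (-0.15).

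Among the G1 genes the 3 D-type cyclins, which couple growth signals to CDK4, went in different directions. CCND1 ran from 8.60 to 9.50 in WBC with a median of 9.11, and from 11.89 to 13.16 in the endometrium with a median of 12.21. It was higher in the endometrium of all 8 cows, by 3.16 ± 0.17 (SE) on the log2 scale or 8.96-fold (adjusted p = 3.58e-10), and was the only one of the 38 genes whose endometrial samples all lay above its WBC samples. CCND3 ran from 12.72 to 13.05 in WBC and from 10.41 to 11.77 in the endometrium. It fell by 1.90 ± 0.15 (adjusted p = 7.19e-08) without overlap of the tissues, and both of its probes gave that direction. CCND2 was 16.18 in WBC of healthy cows and 14.98 in their endometrium, and fell by 1.29 ± 0.23 (adjusted p = 6.70e-04). The cell cycle inhibitor CDKN1A fell by 1.19 ± 0.26 (adjusted p = 0.00402) and the transcription factor E2F1 by 1.16 ± 0.09 (adjusted p = 1.45e-07), the first losing its call when normalized within tissues (-0.31, adjusted p = 0.653). CDK2, the partner of the E cyclins, was also called lower (-0.83, adjusted p = 0.00265), but was at 0.13 (adjusted p = 0.99998) when normalized within tissues. CCNE1 was -0.54 (adjusted p = 0.0485) by its probe in the mean, and lost its call with the cow as a block (adjusted p = 0.0811). That probe was above background on only 3 WBC and 1 endometrium arrays. Its other probe, above background on all WBC arrays, gave -1.02 (adjusted p = 0.00551 over all probes). With both probes kept, CCNE1 was at -0.76 (adjusted p = 7.18e-04). CDK4 (0.41), CCNE2 (0.06) and CDKN1B (-0.04) did not pass, and the 2 probes of CDKN1B were called in opposite directions, at 1.17 and -1.25. The CCNE2 probe left out of the mean gave 0.90 (adjusted p = 0.00508 over all probes). With both probes kept, CCNE2 was at 0.47 (adjusted p = 0.124). In all, 1 of the 10 G1 genes was higher and 6 were lower, with a median of -0.69.

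The 8 measured genes of origin licensing and of the replicative helicase held no gene that was higher in the endometrium. CDT1, which loads the helicase onto origins, ran from 10.46 to 11.81 in WBC and from 8.96 to 11.52 in the endometrium and fell by 1.46 ± 0.31 (adjusted p = 0.00205). Its tissues overlapped through a single biopsy, that of SCE cow 833. The helicase subunits MCM5 and MCM6 fell by 1.16 ± 0.12 (adjusted p = 3.62e-06) and 1.05 ± 0.12 (adjusted p = 2.16e-05), without overlap of the tissues, and MCM4 by 0.59 ± 0.10 (adjusted p = 0.00478). CDC6, the licensing ATPase, was well above background on 2 WBC arrays and on no endometrium array. Its means in both tissues are thus limited by the floor of the signal, and no bound on its difference can be given. The measured value was -0.77 (adjusted p = 7.98e-04). The measured means were 6.38 and 6.24 in WBC and 5.48 and 5.59 in the endometrium of healthy and SCE cows. Normalized within tissues, none of these 5 genes was called, with values from -0.52 for CDT1 to 0.36 for MCM4. MCM7 (-0.46), CDC45 (-0.30) and MCM3 (-0.26) did not pass. For MCM3 the mean hid a disagreement: 3 probes on chromosome 23 gave -1.77, -0.99 and -0.65, whereas the probe with the same symbol on chromosome 9 gave 2.36, and without that probe MCM3 was at -1.14 ± 0.10 (adjusted p = 1.32e-06). MCM2, taken from its description, was at -0.21 ± 0.13 (adjusted p = 0.853).

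The enzymes of DNA synthesis were split between the tissues. RRM2, the regulatory subunit of ribonucleotide reductase, was lower in every endometrium than in any WBC sample. Its WBC levels were 9.37, 9.47, 9.34 and 9.52 in healthy cows and 8.75, 9.64, 9.63 and 8.82 in SCE cows, and its endometrial levels 7.77, 6.05, 6.32 and 6.44 and then 6.45, 6.22, 6.59 and 7.78 (cows 841, 850, 877 and 883, and then SCE cows 718, 833, 836 and 846, an order kept below). It fell by 2.62 ± 0.26 (adjusted p = 7.57e-07) and was above background on 6 of 8 endometrium arrays. RRM1, the catalytic subunit of the same enzyme, changed in the other direction. It ran from 10.83 to 12.05 in WBC with a median of 11.20 and from 11.94 to 14.07 in the endometrium with a median of 12.71, and rose by 1.43 ± 0.28 (adjusted p = 0.00126), in 7 of 8 cows. TYMS, thymidylate synthase, ran from 9.36 to 10.67 in WBC and from 10.54 to 12.38 in the endometrium and rose by 1.76 ± 0.25 (adjusted p = 4.17e-05), again in 7 of 8 cows. The exception for both was SCE cow 833, whose biopsy was lowest of the 8 for each. BLM, a helicase of recombination repair, fell by 0.81 ± 0.12 (adjusted p = 6.61e-04), but was at -0.10 (adjusted p = 0.99998) when normalized within tissues. PCNA, the sliding clamp of the polymerase, did not pass (-0.11), and its probes disagreed in sign.

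The genes that drive entry into mitosis held the most extreme difference. CDC25B, the phosphatase that activates CDK1, ran from 10.82 to 11.37 in WBC and from 7.26 to 7.59 in the endometrium and fell by 3.72 ± 0.09 (adjusted p = 4.26e-14). All 6 of its probes were called lower. The 3 probes towards the 3′ end, above background on all 16 arrays, gave -3.98, -5.52 and -5.52. The 3 towards the 5′ end, of which the first is printed above, gave -2.24, -2.53 and -2.52. They were above background on at most 1 of 8 endometrium arrays, so that their values, and the mean over all 6 probes, are limited by the floor of the signal. PLK1, polo-like kinase 1, ran from 12.54 to 12.84 in WBC and from 10.31 to 11.36 in the endometrium and fell by 1.77 ± 0.13 (adjusted p = 4.44e-08). CCNB2 ran from 7.08 to 7.97 and from 5.56 to 6.53 and fell by 1.51 ± 0.16 (adjusted p = 4.44e-06), without overlap, as for PLK1. CCNB2 was above background on 5 of 8 endometrium arrays, so that its difference is limited by the floor of the signal. Its sister CCNB1 behaved otherwise: WBC lay between 7.90 and 8.87, endometria between 7.81 and 13.61, and the rise of 2.30 ± 0.71 (adjusted p = 0.0153) was seen in 6 of 8 cows. The aurora kinases AURKA (-0.82, adjusted p = 0.00101) and AURKB (-0.87, adjusted p = 1.44e-04) fell, as did CCNA2 (-0.73, adjusted p = 0.0209), which lost its call with the cow as a block (adjusted p = 0.0519). All 3 lost it when normalized within tissues, with -0.22, -0.16 and -0.14. AURKA and CCNA2 were each above background on 6 of 8 endometrium arrays, so that the floor limits their differences too. CDK1 itself did not pass (-0.23, adjusted p = 0.766).

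The 7 measured genes of the spindle, its checkpoint and mitotic exit had the lowest median of the 5 role groups, -1.01, with 6 lower and none higher. CDC20, the activator of the anaphase-promoting complex, ran from 7.09 to 7.47 in WBC and from 5.85 to 6.38 in the endometrium and fell by 1.15 ± 0.10 (adjusted p = 6.38e-07). The other calls were at -1.01 for UBE2C, the ubiquitin-conjugating enzyme of that complex, -1.01 for NUSAP1, a spindle protein, -1.01 and -0.64 for the checkpoint kinases BUB1 and BUB1B, and -0.61 for the motor KIF11. These 5 lost their calls when normalized within tissues, where they ran from -0.48 for UBE2C to -0.10 for BUB1B. In the endometrium, BUB1 was above background on 3 of 8 arrays, CDC20 on 4 and KIF11 on 1, so that their differences are limited by the floor of the signal. For UBE2C the probe printed above gave -1.92, whereas the other, below background on all 16 arrays, gave -0.09. BIRC5, survivin, did not pass (-0.56, adjusted p = 0.0959). TOP2A, the topoisomerase of condensing chromosomes, found by its description, was at -0.99 ± 0.26 (adjusted p = 0.0155), and its 2 probes gave -0.22 and -1.75.

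**Figure D2:**
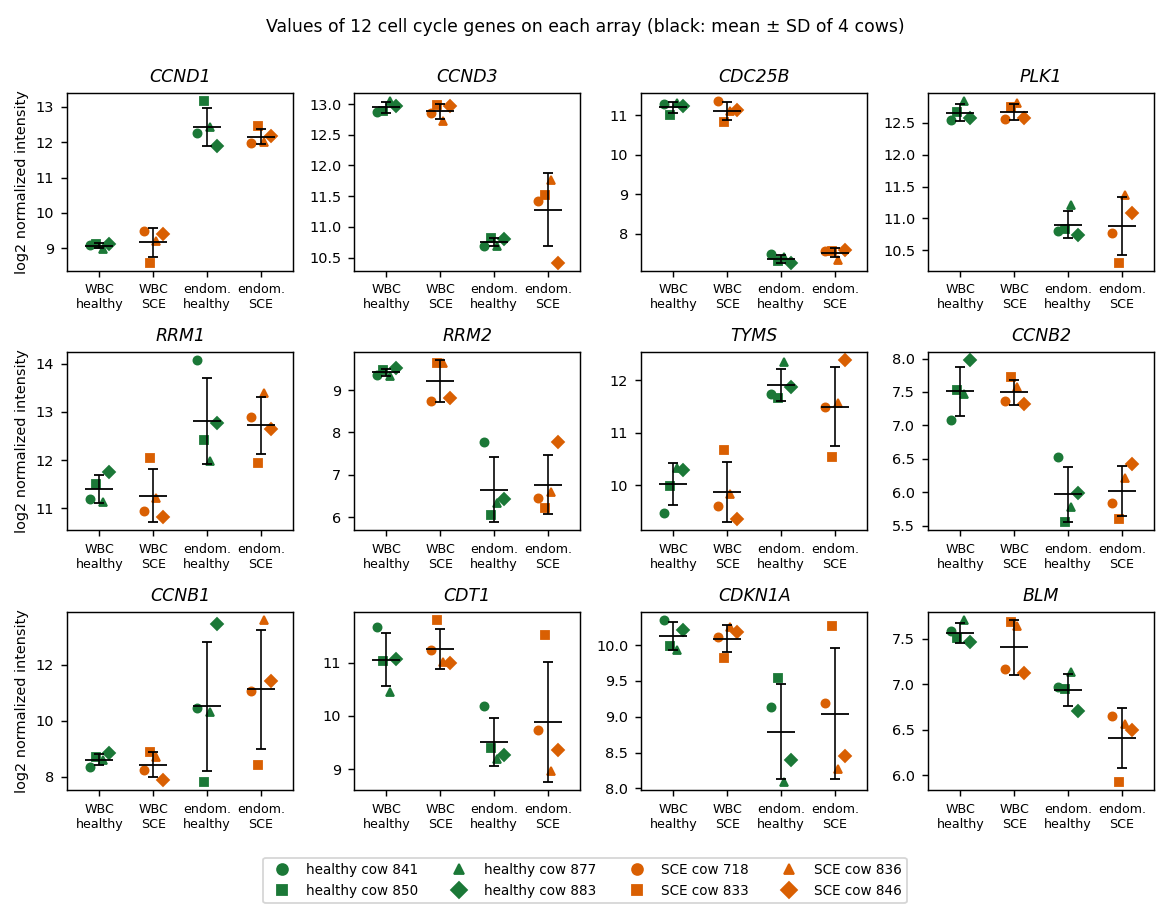
Level of 12 of the genes on each of the 16 arrays (log2 normalized intensity, a different axis range in each panel), with 1 symbol per cow and the mean ± SD of 4 cows in black. CCND1 is high in all 8 endometria, CDC25B, PLK1, RRM2, CCND3 and CCNB2 are low in all 8, and CCNB1 spreads from 7.81 to 13.61 in the endometrium.

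The other cell cycle genes, 114 measured of 123 listed, fell more often than they rose with all arrays normalized together. Of the 114, 12 rose and 52 fell, whereas 22.3% of all genes rose and 30.4% fell. Their median difference was -0.42, against -0.15 over all genes, and 77 lay below the median of all genes. Normalized within tissues, 34 were called higher and 12 lower, where 40.9% of all genes were called higher and 10.13% lower. With all arrays normalized together, none of 45 other mitotic genes rose and 24 fell. Under that scaling 6 of 34 other replication genes rose and 13 fell, and 6 of 35 G1 and checkpoint genes rose and 15 fell. Of the other mitotic genes, MAD2L1, NUF2, PBK and CKS1B were each called higher under 1 of the 5 scalings. Among the largest rises of each list, CDKN1C, a CDK inhibitor, was 3.09 ± 0.34 higher (adjusted p = 1.65e-06) and GMNN, geminin, the inhibitor of CDT1, 2.68 ± 0.37 (adjusted p = 2.44e-05), neither with any overlap of the tissues. RPA3, a subunit of the single-strand binding protein, was 1.72 higher, E2F5 1.23, CCNG1 1.18 and RFC3, a clamp loader subunit, 0.97. The largest falls of each list were at CDKN2D, an inhibitor of CDK4 (-3.19 ± 0.15, adjusted p = 1.03e-10), the pocket protein RBL1 (-2.33), FBXO5, an inhibitor of the anaphase-promoting complex (-1.99), the epigenetic regulator UHRF1 (-1.95) and the transcription factor MYBL2 (-1.90). MCM8 was at -1.84, the spindle protein TACC3 at -1.67, ORC1, of the origin recognition complex, at -1.61 and TFDP2, a partner of E2F, at -1.56. All of these 15 kept their direction within tissues, where TFDP2 no longer passed (-0.61, adjusted p = 0.0740).

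The 38 genes varied more between endometria than between WBC samples. The SD within a health group, pooled over both, had a median of 0.318 in the endometrium and 0.223 in WBC over the 38 genes, against 0.265 and 0.224 over all genes. It was larger in the endometrium for 31 of the 38, or 81.6%, against 58.3% of all genes. The 114 other cell cycle genes did not share this: it was larger for 65 of them, or 57%, with medians of 0.284 and 0.252. The processed signal gave 0.642 and 0.339 for the 38 genes. This comparison was not tested. CDC6, below background in every endometrium, was the gene with the smallest endometrial SD.

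**Figure D3:**
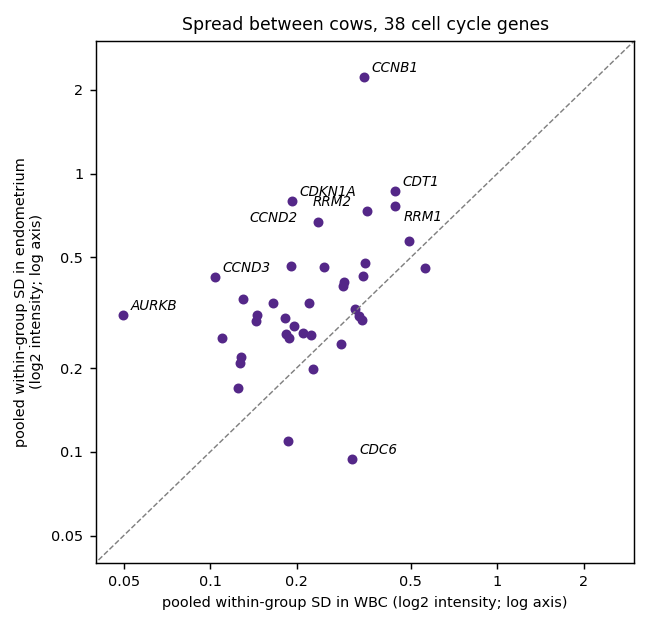
SD between cows within a health group in endometrium (vertical) and WBC (horizontal), both in log2 intensity on log axes, for each of the 38 genes, with the dashed line where both are equal. Of the 38 points 31 lie above the line, and CCNB1 stands alone at 2.22 in the endometrium and 0.34 in WBC.

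CCNB1 was by far the most variable. Its endometrial levels were 10.46, 7.81, 10.31 and 13.46 in healthy cows and 11.06, 8.41, 13.61 and 11.43 in SCE cows. The biopsies of healthy cow 850 and SCE cow 833 were no higher than the WBC samples of these same cows (8.68 and 8.87), those of healthy cow 883 and SCE cow 836 stood highest, and the span of 5.79 on the log2 scale was 55.4-fold. By its endometrial SD (2.22) CCNB1 ranked 37 among 26358 genes, of which 0.14% were as variable. In WBC of the same cows CCNB1 ran from 7.90 to 8.87. The overlapping probes differed by at most 0.575 on any array, against a span of 5.85 for one probe and 5.94 for the other. CCNB2, CDK1 and PLK1, which act with CCNB1, did not share this span: CCNB2 ranged over 0.97 and CDK1 over 1.31. Of all the cell cycle genes measured, the next in span was SPC24, a kinetochore protein of the other mitotic genes, singled out after its values were seen. It was 10.37, 9.04, 10.59 and 12.34 in healthy and 11.02, 10.01, 13.07 and 12.10 in SCE endometria, a span of 4.03, with cows 850 and 833 lowest and cows 836 and 883 highest, as for CCNB1. In WBC it ran from 10.94 to 11.86. The mean level of the 7 epithelial markers on these biopsies was 10.39, 9.59, 8.83 and 10.66 in healthy cows and 10.72, 9.62, 10.95 and 9.75 in SCE cows. The highest value of that mean belonged to cow 836, and its part in the CCNB1 levels was not tested.

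Next in spread were CDT1, CDKN1A, RRM1 and RRM2. CDT1 was 10.18, 9.40, 9.18 and 9.27 in healthy endometria and 9.73, 11.52, 8.96 and 9.35 in SCE endometria, and CDKN1A was 9.13, 9.54, 8.09 and 8.40 and then 9.19, 10.27, 8.27 and 8.45. Both were highest in cow 833, whose biopsy was the dimmest array and stood apart over all genes and in its endothelial and stromal markers as well. The part of its cell types in these levels was not tested. RRM1 was 14.07, 12.41, 11.99 and 12.77 in healthy and 12.90, 11.94, 13.38 and 12.64 in SCE endometria. It was highest in cow 841, and RRM2, given above, was high in cows 841 and 846 and at most 6.59 in the others. Between 5.19 and 8.12% of all genes were as variable as these 4.

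The spread was partly shared between genes. The endometrium of healthy cow 841 was the highest of 8 for 17 of the 38 genes, against 11.9% of all genes, and above the gene's mean for 30 of 38, against 45.8% of all genes. The same array was the highest for 48 of the 114 other cell cycle genes, and it was the highest of the 8 for TOP2A (8.11, others from 6.12 to 7.61). By role, the 17 were 2 of 10 G1 genes, 4 of 8 licensing genes, 2 of 5 DNA synthesis genes, 5 of 8 genes of mitotic entry and 4 of 7 spindle genes, a distribution that was not tested. The endometrium of SCE cow 846 was above the gene's mean for 29 of 38 genes (45% of all genes), while that of SCE cow 833 was the lowest for 12 of 38 and for 50 of the 114 others (26.5% of all genes). Without cow 841 the median SD of the 38 genes was 0.281, and with each other cow left out it was at most 0.345. In WBC, SCE cow 833 was the highest of 8 for 18 of 38 genes (20.1% of all genes) and for 54 of the 114 others, and it was the brightest WBC array.

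**Figure D4:**
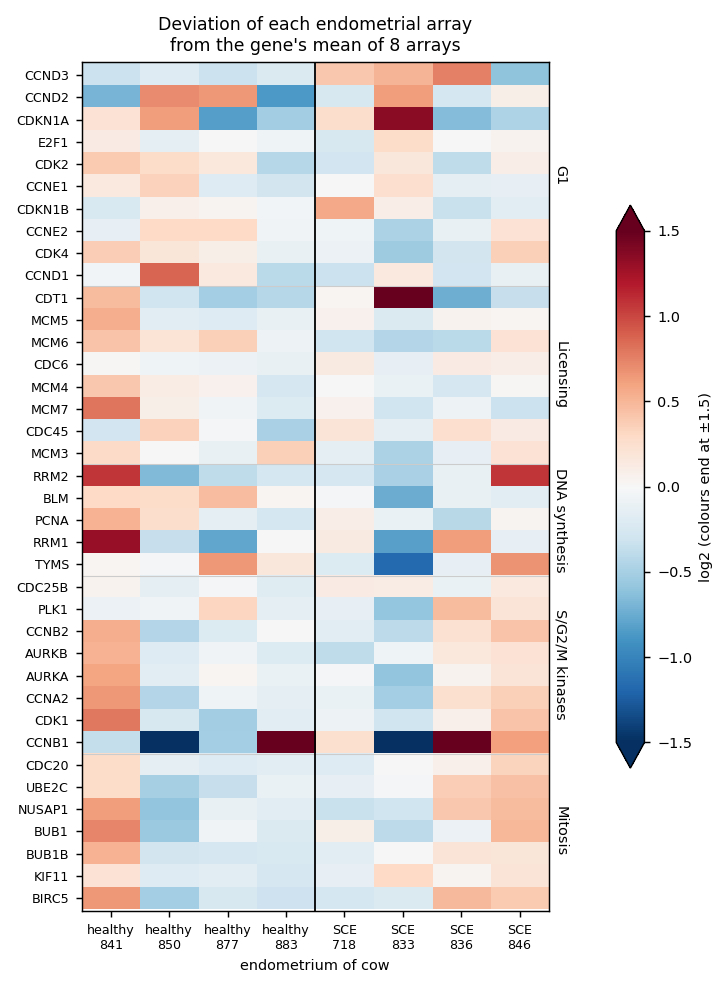
Deviation of each of the 8 endometrial arrays from the gene's mean over those arrays (log2, red above and blue below, colours end at ±1.5), for the 38 genes grouped by role. The array of healthy cow 841 is above the mean for 30 of 38 genes, and CCNB1, at the row with the strongest colours, is far below its mean in cows 850 and 833 and far above in cows 883 and 836.

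None of these genes passed the test of SCE against healthy cows in the endometrium. With TREAT on the 8 endometrial arrays, 0 of the 38 genes passed after adjustment, as did 0% of all 26547 genes, for which the smallest adjusted p rounded to 1. At an unadjusted p of 0.05, 0 of 38 genes passed, against 0.380% of all genes. Without the 1.2-fold threshold, 2 of 38 genes and 1.88% of all genes passed at an unadjusted p of 0.05. Values of SCE minus healthy ran from -0.53 to 0.62 with a median of 0.05, and 20 of 38 were above 0, against 50.5% of all genes.
The largest difference, that of CCNB1, was 0.62 ± 1.34 (SE), and it turned to -0.28 without healthy cow 850 and to -0.21 without SCE cow 836.
CCND3 was 10.69, 10.82, 10.69 and 10.80 in healthy endometria and 11.41, 11.52, 11.77 and 10.41 in SCE endometria. SCE cows 718, 833 and 836 thus lay above all healthy cows and cow 846 below them, and the difference of 0.53 ± 0.27 did not pass (exact permutation p = 0.143, unadjusted TREAT p = 0.183). It rested mainly on 1 of the 2 probes, which gave 0.88 and 0.18. The mean level of 5 neutrophil genes on the SCE arrays was 7.63, 8.48, 6.91 and 6.84, against 6.48 to 7.09 in healthy endometria, and its part in the CCND3 levels was not tested.
BLM was the only one of the 38 genes for which the groups did not overlap, with SCE lower, as for 0.774% of all genes. With SCE higher, 0 of the 38 genes were separated, against 0.725% of all genes. The study lists BLM among its endometrial genes that differed with SCE, a list drawn from these same arrays. Its separation here is therefore not an independent result. BLM was 6.97, 6.95, 7.13 and 6.70 in healthy and 6.65, 5.92, 6.56 and 6.50 in SCE endometria. The difference was -0.53 ± 0.18, with an unadjusted TREAT p of 0.0897 and a two-sided exact permutation p of 0.029, the smallest that 4 against 4 cows can give, and an adjusted TREAT p of 1. The value was -0.37 without SCE cow 833, -0.42 after normexp background correction and -1.19 on the processed signal, and BLM was below background in 1 SCE endometrium.
MCM6 was 9.15, 8.93, 9.08 and 8.65 in healthy and 8.42, 8.28, 8.32 and 8.94 in SCE endometria, a difference of -0.46 ± 0.18 (exact permutation p = 0.086, unadjusted TREAT p = 0.159). All SCE endometria but that of cow 846 were below all healthy ones. TYMS was 11.73, 11.67, 12.34 and 11.87 in healthy and 11.50, 10.54, 11.57 and 12.38 in SCE endometria, a difference of -0.40 ± 0.36 with overlapping groups.
By role, the values of all 7 mitotic genes were above 0, from 0.05 for BUB1 to 0.34 for UBE2C, against 50.5% of all genes and 24 of the 45 other mitotic genes, and none of them passed at an unadjusted p of 0.05. The sign was not the same in both rows of the slide, each with 2 SCE and 2 healthy cows: in the first row 5 of the 7 were below 0 (-0.34 to 0.08), and in the second all 7 were above 0 (0.32 to 0.71). Those of the DNA synthesis genes were below 0 for 4 of 5, the exception being RRM2 at 0.12, with all 5 below 0 in the first row of the slide and 3 of 5 above 0 in the second.

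Of the 114 other cell cycle genes, 0 passed in the endometrium after adjustment and 1 at an unadjusted p of 0.05. That gene, CDKN2D, was 6.67, 6.97, 7.10 and 7.05 in healthy and 7.79, 8.14, 7.23 and 7.53 in SCE endometria. The groups did not overlap (0.725% of all genes, with SCE higher), and the difference was 0.73 ± 0.20 (unadjusted TREAT p = 0.0261, adjusted p = 0.999999, exact permutation p = 0.029). In WBC of the same cows it was -0.16 ± 0.21. Its highest samples, SCE cows 833 and 718, were also those with the highest mean level of the neutrophil genes (8.48 and 7.63), and the part of those cells was not tested. Between the tissues CDKN2D was 9.14-fold lower in endometrium than in WBC. CDKN2D was the only 1 of the 114 genes that separated the groups with SCE higher. With SCE lower, 2 of the 114 did, CHAF1B (-0.39) and MCM8 (-0.19), against 0.774% of all genes.

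**Figure D5:**
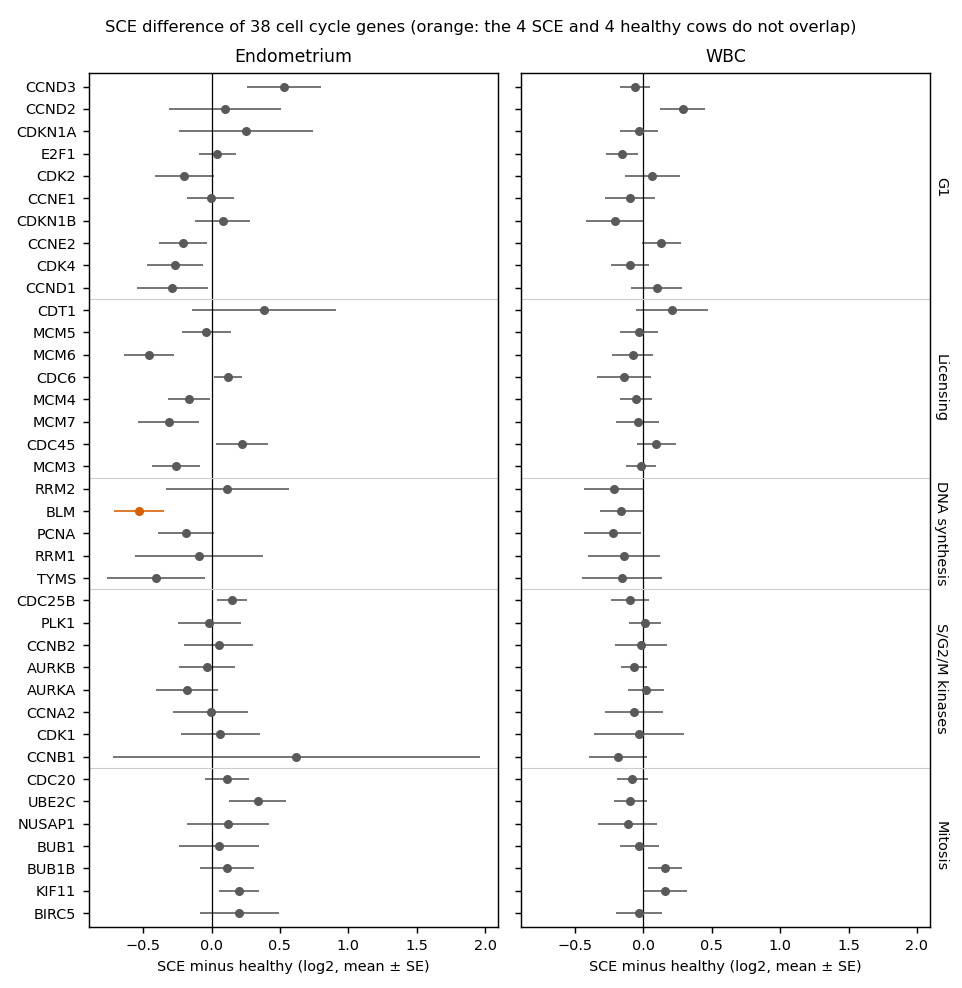
Difference between SCE and healthy cows (log2 normalized intensity, mean ± SE, 4 against 4 cows) in endometrium (left) and WBC (right) for the 38 genes, grouped by role. BLM in the endometrium (orange) is the only gene whose groups do not overlap, and none passed TREAT after adjustment.

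In WBC, likewise, none of the genes passed. With TREAT on the 8 WBC arrays 0 of 38 genes passed after adjustment (0% of 26550 genes), and 0 of 38 at an unadjusted p of 0.05 (0.0904% of all genes). The smallest unadjusted p was 0.449, for CCND2. Values ran from -0.22 to 0.29 with a median of -0.06, and 10 of 38 were above 0, against 47.4% of all genes.
CCND2 was 16.20, 16.33, 16.07 and 16.13 in WBC of healthy cows and 16.43, 16.05, 16.59 and 16.80 in WBC of SCE cows, a difference of 0.29 ± 0.16 (exact permutation p = 0.171). Cow 833 was the lowest SCE sample and below all healthy cows, while the other 3 SCE cows were above them.
PCNA was 9.30, 9.41, 9.50 and 9.27 in healthy and 8.84, 9.80, 9.11 and 8.83 in SCE cows (-0.22 ± 0.21). RRM2, given above, was at -0.21 ± 0.22, CDKN1B at -0.21 ± 0.21 and CDT1 at 0.21 ± 0.26.
CDKN1B was 10.55, 10.48, 10.60 and 10.48 in healthy and 10.03, 11.03, 10.17 and 10.06 in SCE cows, so that cow 833 lay above and the other 3 SCE cows below all healthy ones. CDT1 was 11.67, 11.04, 10.46 and 11.07 and then 11.25, 11.81, 11.01 and 11.01. For none of the 38 genes were the SCE and healthy cows separated in WBC, as they were for 1.33% of all genes in either direction.

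The difference of the SCE effect between the tissues, endometrium minus WBC, was tested over all 16 arrays. After adjustment 0 of the 38 genes passed (0% of 26545 genes), and at an unadjusted p of 0.05 0 of 38 did, against 0.388% of all genes. The smallest unadjusted p of the 38 was 0.148, for CCND3, with a difference of 0.59 ± 0.30 (0.99 and 0.20 by its 2 probes). Of the other cell cycle genes CDKN2D had an unadjusted p of 0.0302 (0.89 ± 0.30, adjusted p = 0.999969). The standard errors set what could be seen: for BLM, the endometrial SE was 0.18 on the log2 scale, and for CCNB1 1.34.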

How the data were processed

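WBC and endometrium RNA of 8 cows was labelled with Cy3 and hybridised, 1 sample per array, to a custom bovine Agilent array. The authors extracted the images with Agilent Feature Extraction 10.10.1.1, and the deposited scanner files hold spot intensity. A deposited table of the authors' quantile-normalized intensity was used only as an alternative. No column of per-sample values was left unused.

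The median intensity of each spot was used without background correction. The 1319 control spots were left out and outlier spots (190 to 465 per array) masked. The log2 values were quantile-normalized over 16 arrays, spots averaged per probe, and probes measured on all arrays averaged per gene. The gene tests were TREAT at 1.2-fold in limma 3.58.1 (R 4.3.3), with Benjamini-Hochberg adjustment over all genes, and the tissue test used 16 arrays and each SCE test 8. Spot background is Agilent's well-above-background mark. The number of arrays limits the precision. The scripts were tested on simulated data. Single genes had two-sided exact permutation tests over 70 splits of the cows.

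The 41 genes, their roles and the other lists were chosen with earlier results of these data known. Values by array were given for the 5 genes with the largest rise and fall between tissues and the 5 with the largest SCE difference in each tissue. They were also given for the 5 with the largest endometrial SD, and for BLM. BLM was chosen because the study lists it among its endometrial genes that differed with SCE on these same arrays. Of the other lists the 3 largest differences each way between tissues were named. CHAF1B and SPC24 were named after their values were seen. Cow numbers pair the tissues, since both samples came from the same cow. Deviations from the group means of the 2 samples of a cow correlated at -0.328 to 0.142 over probes, above 0.1 in 2 of 8 cows. Symbols are those of the array, and matching to RefSeq gained and lost 0 of the 88 probes. Alternatives were other scalings, background correction, probe and threshold choices, the cow and the slide row as blocks, and each cow left out. Keeping probes not measured on every array, and assigning probes by description, were chosen after seeing the data.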

Additional observations from a re-analysis of the deposited data

Results flagged for a closer look

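In 3 of 64 groups of 4 cows tested, over 16 genes, 1 sample stood apart from the other 3 by Dixon's test, where chance gives about 1 in 20. CCND1 in WBC of healthy cow 877 was 8.99 against 9.10 to 9.115 in the other healthy cows. CDC25B in the endometrium of SCE cow 836 was 7.341 against 7.557 to 7.593. CDKN1B in WBC of SCE cow 833 was 11.03 against 10.03 to 10.17.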

How the results depend on the processing

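Of the values recomputed for the group counts and the spread, 143 stayed within 1.5 times or on the same side of the threshold and 4 moved, and of those for single genes 721 held, 1 weakened and 2 reversed. Normalizing within each tissue left 15 of the 38 genes called between tissues in place of 29, and called 34 of the other cell cycle genes higher and 12 lower, in place of 12 and 52. TFDP2 weakened to -0.61 (limma's TREAT, adjusted p = 0.0740). This alternative lets the tissues keep different distributions, and which scaling is nearer to the RNA content was not tested. The processed signal raised the median endometrial SD to 0.642. The SCE difference of CCNB1 in the endometrium ranged from -0.28 (without cow 850) to 1.60 (without cow 883) with each cow left out, and also reversed, to -0.21, without cow 836. The remaining settings called 27 to 34 of the 38 genes between tissues, the highest without a fold threshold. With the cow as a replicate block, 27 were called, and the calls lost were those of CCNA2 and CCNE1; 13 of the other genes were higher and 49 lower. Leaving out each cow gave 27 to 30 calls between tissues, 9 (without cow 846) to 17 (without cow 833) of the other genes higher and 48 to 54 lower, a median endometrial SD of 0.281 to 0.345, and 0 calls for SCE in either tissue or for their difference. By the probes in the mean, low signal limits the endometrial values of the 12 genes above background on 1 to 7 arrays. It also limits those of the 2 above it on none. A gene above background on every array can be limited too through some of its probes, as CDC25B was. The search for promoter motifs was not run, since no promoter sequences were at hand.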
